A study of Mus musculus with 6 samples.

Results

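The genes described here are 10 secondary and tertiary neutrophil granule genes, Camp, Ngp, Ltf, Lcn2, Mmp8, Mmp9, Chil3, Cd177, Orm1 and Hp, out of 27179 genes listed in an RNA-sequencing table of mouse leukemia-initiating cells. They were found by symbol, and all 10 had a row. The set was selected on the difference between the Asic3-null and WT libraries of this same table, so those differences are given as a description, with no p-value, and nothing is read from which of them pass a threshold. The study compared leukemia-initiating cells that carried or lacked Asic3, a proton-gated cation channel of the plasma membrane. There were 3 libraries labelled Asic3-null (Asic3-/-) and 3 labelled WT (Asic3+/+), all from C57BL/6 mice with a labelled age of 8 weeks. Both groups carried the MLL-AF9 fusion oncogene with a YFP reporter, delivered by retrovirus to lineage-negative fetal liver cells that were then transplanted, and the cells sequenced were sorted from the bone marrow of leukemic mice as YFP+ Mac-1+ c-Kit+ cells. The fetal liver cells came from mice with or without Asic3 and the recipients were C57BL/6 mice, and whether a library came from 1 mouse or from several is not given in the sources used here, so any p-value measures the spread between these samples only.

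Neutrophils store their antimicrobial and matrix-degrading proteins in granules that are filled one class after another as the cell matures. Primary or azurophil granules are filled in promyelocytes, secondary or specific granules in myelocytes and metamyelocytes, and tertiary or gelatinase granules in band cells. Transcription of the specific granule genes in myelocytes depends on C/EBP-epsilon, whereas MLL-AF9 leukemic cells are largely arrested at the stage of granulocyte and monocyte progenitors.

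Depth and labels were examined before the granule genes. Whole read numbers could be recovered from the RPKM values (reads normalised to the length of the gene and to library size), and the library sizes inferred in this way were 1947168 to 2381861 reads. The targeted gene did not follow the labels. Asic3 was 9.12, 4.11 and 6.58 RPKM under the Asic3-null label and 1.22, 1.85 and 0.435 RPKM under WT (log2 difference 1.81, SE 0.35, limma Benjamini-Hochberg adjusted p = 0.026), a call lost under 7 of 14 alternatives. Which exon the knockout removes is not given in the sources used here, so reads from outside a deleted part would check nothing. Whether labels were exchanged was not tested; an exchange would turn the direction of every difference given here. The groups also differed in sex: Xist, transcribed from the inactive X chromosome, was 46.5 to 71.9 RPKM under the Asic3-null label and at most 0.0573 RPKM under WT, and no library labelled Asic3-null had a read for Uty, Ddx3y, Eif2s3y or Kdm5d, which lie on the Y chromosome. Genotype label and sex cannot be told apart in any comparison that follows. The sort antigens were both present. Kit was 14.4 to 20.4 RPKM under the Asic3-null label and 8.97 to 15.3 RPKM under WT (adjusted p = 0.219, limma), and Itgam, the alpha chain of Mac-1, is described with the granule membrane genes.

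Camp, Ngp and Ltf lie within 1170 kb of each other on chromosome 9, with 570 kb between the starts of Camp and Ngp and 599 kb between those of Ngp and Ltf. The RefSeq promoter table (GRCm38.p6, the same GRCm38 build as the deposited table) held windows for 7 of the 10 genes: Lcn2, Chil3, Cd177, Mmp8, Camp, Ngp and Ltf. Mmp9, Orm1 and Hp had no entry. The 250 bases before the start of the 3 chromosome 9 neighbours, and of Chil3, the second most abundant gene of the set, are printed because these genes had some of the highest levels or largest differences of the set. Each runs 5′ to 3′ on the gene's own strand, from minus strand chr9:109849457-109849706 for Camp, plus strand chr9:110419558-110419807 for Ngp, plus strand chr9:111019042-111019291 for Ltf and minus strand chr3:106167565-106167814 for Chil3. Capitals mark matches on either strand to TTNNGNAA (letters bound by C/EBP factors), GAGGAA (PU.1) or AAATCA (GFI1).

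Camp: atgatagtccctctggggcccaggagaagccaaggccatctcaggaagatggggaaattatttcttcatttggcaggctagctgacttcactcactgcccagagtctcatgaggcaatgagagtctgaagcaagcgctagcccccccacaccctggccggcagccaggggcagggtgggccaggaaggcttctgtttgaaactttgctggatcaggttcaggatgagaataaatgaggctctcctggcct

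Ngp: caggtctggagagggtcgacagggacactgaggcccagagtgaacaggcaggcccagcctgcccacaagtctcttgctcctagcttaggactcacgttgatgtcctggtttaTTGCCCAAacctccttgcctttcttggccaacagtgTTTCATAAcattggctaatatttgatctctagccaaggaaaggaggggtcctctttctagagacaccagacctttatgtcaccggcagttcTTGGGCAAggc

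Ltf: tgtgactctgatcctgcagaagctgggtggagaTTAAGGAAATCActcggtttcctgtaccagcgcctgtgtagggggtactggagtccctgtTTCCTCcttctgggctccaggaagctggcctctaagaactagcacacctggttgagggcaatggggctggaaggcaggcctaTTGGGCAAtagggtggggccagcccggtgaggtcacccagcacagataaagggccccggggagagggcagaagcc

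Chil3: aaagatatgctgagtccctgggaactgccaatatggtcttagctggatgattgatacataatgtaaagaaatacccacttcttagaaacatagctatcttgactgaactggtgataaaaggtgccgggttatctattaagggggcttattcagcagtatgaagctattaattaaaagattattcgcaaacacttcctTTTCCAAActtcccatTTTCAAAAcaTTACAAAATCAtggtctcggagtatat

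The Camp window held none of the 3 motifs. The Ngp window held 3 matches to the C/EBP letters, at bases -138 to -131, -102 to -95 and -11 to -4 before the start, and none to the others. Ltf had C/EBP letters at -217 to -210 and -75 to -68, PU.1 letters at -157 to -152 and GFI1 letters at -211 to -206, which overlap the first C/EBP match. In Chil3 the C/EBP letters stood at -53 to -46, -37 to -30 and -27 to -20, the last overlapping a GFI1 match at -22 to -17. All windows were searched over 300 bases, from 250 before to 50 after the start, and in the 7 genes every match lay before it. Over the 7 windows, 6 had the C/EBP letters, 4 the PU.1 letters and 3 the GFI1 letters, where 40.7%, 28.3% and 14% of all 32851 RefSeq windows of 300 bases did. A match of letters is a description of the sequence and not a measured binding site.

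Camp, Ngp, Ltf, Lcn2, Chil3 and Cd177 were each lower in all 3 Asic3-null libraries than in any WT library. In bulk RNA, fewer cells of a type and less RNA per cell cannot be told apart. Camp (Entrez 12796, chromosome 9, 109847377 to 109849456) encodes the precursor of the cathelicidin antimicrobial peptide. Its levels were 5.05, 13.3 and 13.5 RPKM in Asic3-null replicates 1, 2 and 3 and 445, 545 and 376 RPKM in WT replicates 1, 2 and 3. The lowest WT library stood far above the highest Asic3-null library. Camp averaged 10.6 ± 4.83 and 455 ± 85.2 RPKM (SD, n = 3 each), 42.9-fold apart, with a log2 difference of -5.39 (SE 0.32) on the log2(RPKM + 1) scale. Among all genes by mean RPKM, Camp held rank 129 in the WT libraries and rank 7027 in the Asic3-null libraries, where it rested on 7, 19 and 19 reads.

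Ngp (Entrez 18054, chromosome 9, 110419808 to 110423012), a cystatin-related protein of specific granules, was 30.9, 57.5 and 45.1 RPKM under the Asic3-null label and 671, 778 and 790 RPKM under WT. The groups did not overlap, and the WT libraries lay close together. Mean levels were 44.5 ± 13.3 and 746 ± 65.5 RPKM (SD, n = 3 each), 16.8-fold apart, and the log2 difference was -4.08 (SE 0.21). Within each library the ratio of Camp to Ngp was also lower under the Asic3-null label, at 0.163, 0.232 and 0.299 against 0.664, 0.701 and 0.476, so the pair did not scale by 1 factor.

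Ltf (Entrez 17002, chromosome 9, 111019292 to 111042766) encodes lactoferrin, an iron-binding glycoprotein of specific granules. It was 0.473, 2.30 and 0.466 RPKM under the Asic3-null label and 8.50, 38.0 and 24.3 RPKM under WT. Relative to the mean, Ltf had the widest spread of the 9 tested genes among the WT libraries, with replicate 1 at 0.273 times the mean of the others, yet still above every Asic3-null library. Ltf averaged 1.08 ± 1.06 and 23.6 ± 14.8 RPKM (SD, n = 3 each), 21.9-fold apart, and the log2 difference was -3.46 (SE 0.51). The low values rested on 3, 15 and 3 reads, and without Asic3-null replicate 2 the means were 50.3-fold apart.

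Lcn2 (Entrez 16819, chromosome 2, 32384637 to 32387739) encodes lipocalin 2, which withholds iron from bacteria by binding their siderophores. Its levels were 87.6, 97.5 and 52.9 RPKM under the Asic3-null label and 675, 378 and 408 RPKM under WT. Replicate 1 was the highest of the WT libraries, and the groups did not overlap. The means of 79.3 ± 23.4 and 487 ± 164 RPKM (SD, n = 3 each) were 6.14-fold apart, with a log2 difference of -2.60 (SE 0.27). Chil3 (Entrez 12655, chromosome 3, 106147554 to 106167564), a chitinase-like lectin also called Ym1, was 88.4, 136 and 99.9 RPKM against 1086, 996 and 488 RPKM. WT replicate 3 was below the other WT libraries but well above all Asic3-null libraries. Chil3 averaged 108 ± 25.1 and 856 ± 322 RPKM (SD, n = 3 each), 7.91-fold apart, with a log2 difference of -2.91 (SE 0.29).

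Cd177 (Entrez 68891, chromosome 7, 24743983 to 24760334), a GPI-anchored glycoprotein of the specific granule and plasma membranes, had the smallest spread of the 9 tested genes under the Asic3-null label, at 27.1, 26.9 and 27.0 RPKM. Under WT it was 134, 80.6 and 82.5 RPKM, again with replicate 1 highest. Its means were 27.0 ± 0.0680 and 99.0 ± 30.3 RPKM (SD, n = 3 each), 3.67-fold apart, and its log2 difference was -1.80 (SE 0.20). The ratio of Lcn2 to Cd177 was 3.24, 3.62 and 1.96 in the Asic3-null libraries and 5.04, 4.69 and 4.95 in the WT libraries.

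**Figure D1:**
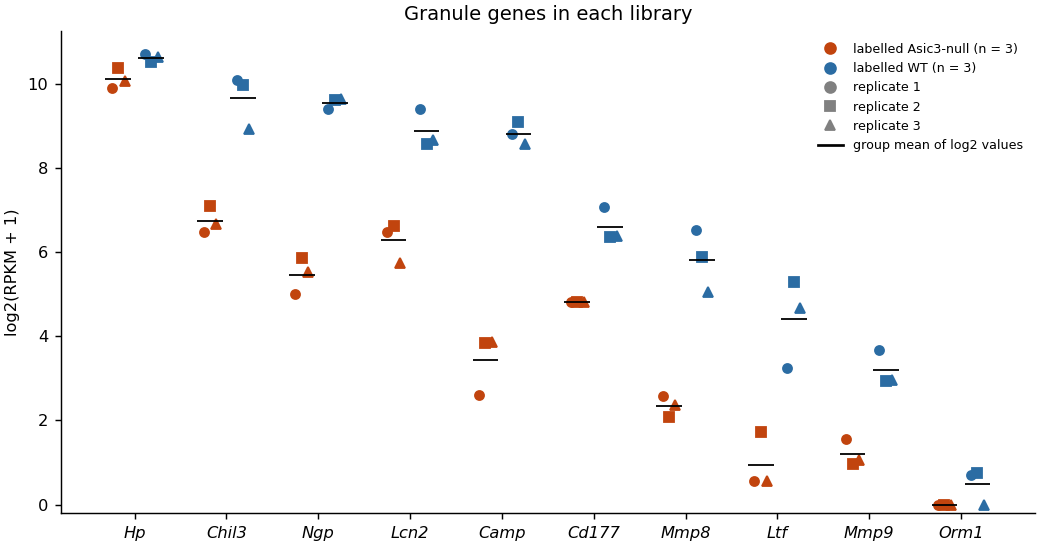
The level of each of the 10 granule genes in each library, as log2(RPKM + 1), with 3 libraries labelled Asic3-null in orange, 3 labelled WT in blue, symbols for replicate numbers and a bar at the mean of the log2 values. The set was chosen on this difference. Every Asic3-null library is below every WT library for 9 of the 10 genes, beside 11.4% of all tested genes, and Orm1 is near 0 throughout.

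Both metalloproteases of the set were lower as well. Mmp8 (Entrez 17394, chromosome 9, 7558429 to 7568486), the neutrophil collagenase, is stored mainly in specific granules. It was 4.93, 3.25 and 4.17 RPKM in the Asic3-null libraries and 90.5, 58.0 and 32.4 RPKM in the WT libraries, with no overlap. Mmp8 averaged 4.12 ± 0.840 and 60.3 ± 29.2 RPKM (SD, n = 3 each), 14.7-fold apart, and the log2 difference was -3.48 (SE 0.33). Mmp9 (Entrez 17395, chromosome 2, 164940326 to 164955850), gelatinase B, is the protease that gives gelatinase granules their name. Its levels were 1.93, 0.936 and 1.09 RPKM against 11.7, 6.71 and 6.73 RPKM, the lowest WT mean of the 9 genes that could be tested. The groups did not overlap, although the Asic3-null values rested on 14, 7 and 8 reads. The means of 1.32 ± 0.534 and 8.37 ± 2.86 RPKM (SD, n = 3 each) were 6.36-fold apart, with a log2 difference of -2.00 (SE 0.29). The ratio of Mmp8 to Mmp9 was 2.56, 3.47 and 3.84 under the Asic3-null label and 7.76, 8.65 and 4.81 under WT, again without overlap.

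Hp and Orm1, which encode acute phase proteins, stood at the extremes of level, Hp highest and Orm1 lowest. Hp (Entrez 15439, chromosome 8, 109575128 to 109579172) encodes haptoglobin, which binds free hemoglobin and is made by the liver as well as by maturing granulocytes. It was the most abundant gene of the set under both labels, at 958, 1337 and 1076 RPKM in the Asic3-null libraries and 1678, 1459 and 1603 RPKM in the WT libraries. The highest Asic3-null library was only a little below the lowest WT library. The means of 1124 ± 194 and 1580 ± 111 RPKM (SD, n = 3 each) were 1.41-fold apart, with a log2 difference of -0.50 (SE 0.14), which did not pass the threshold. Orm1 (Entrez 18405, chromosome 4, 63344556 to 63348163), which encodes alpha-1-acid glycoprotein, had 0, 0 and 0 reads against 1, 1 and 0 reads. That is at or under the limit that a count of 0 allows (3 reads, or 0.554 RPKM over the Asic3-null libraries), so no fold is given and Orm1 was too low to enter the fit. The hepatocyte gene Alb had no read in any of the 6 libraries, and the 7 hepatocyte markers together summed to at most 0.852 RPKM.

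By the criterion used across all genes (limma, adjusted p under 0.05), 8 of the 10 genes were called lower, 9 having passed the filter on low values. The same call was made for 2.82% of the 12037 genes tested, and 0.523% were called higher. All 3 Asic3-null libraries lay below all 3 WT libraries for 9 of the 10, and for 11.4% of all genes tested. Because the set was chosen for this difference, nothing is read from those counts. With untransformed RPKM and no moderation, 0 of the 10 were called. The median log2 difference of the 9 tested genes was -2.91, beside 0.03 over all tested genes.

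The order of abundance shifted along with the levels. By mean RPKM the WT order was Hp, Chil3, Ngp, Lcn2, Camp, Cd177, Mmp8, Ltf, Mmp9 and Orm1. The ranges of adjacent genes from Chil3 to Camp overlapped, and each of these pairs kept its order in 2 of the 3 WT libraries. From Cd177 to Mmp9 the ranges of adjacent genes overlapped too, but within each WT library Cd177 exceeded Mmp8 and Mmp8 exceeded Ltf, while Ltf exceeded Mmp9 in 2 of 3. The order under the Asic3-null label was Hp, Chil3, Lcn2, Ngp, Cd177, Camp, Mmp8, Mmp9, Ltf and Orm1, with overlapping ranges for Chil3 and Lcn2 and for Lcn2 and Ngp, which kept their order in all 3 libraries, and for Mmp9 and Ltf, which kept it in 2. Camp moved below Cd177, a gene it exceeded in every WT library.

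Summed over the 10 genes, the level was 1204, 1675 and 1320 RPKM in the Asic3-null libraries and 4801, 4340 and 3811 RPKM in the WT libraries. Without Hp the sums were 246, 338 and 244 RPKM against 3123, 2881 and 2208 RPKM. Hp therefore made up most of what was left: its share of the sum was 79.6%, 79.8% and 81.5% under the Asic3-null label and 35.0%, 33.6% and 42.1% under WT (80.3% ± 1.06 and 36.9% ± 4.54, SD, n = 3 each). The share of Camp was 0.746% ± 0.305 against 10.6% ± 1.75, and that of Ngp 3.14% ± 0.497 against 17.5% ± 3.39. The share of Cd177 was 1.97% ± 0.327 and 2.27% ± 0.477, and here the libraries overlapped.

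**Figure D2:**
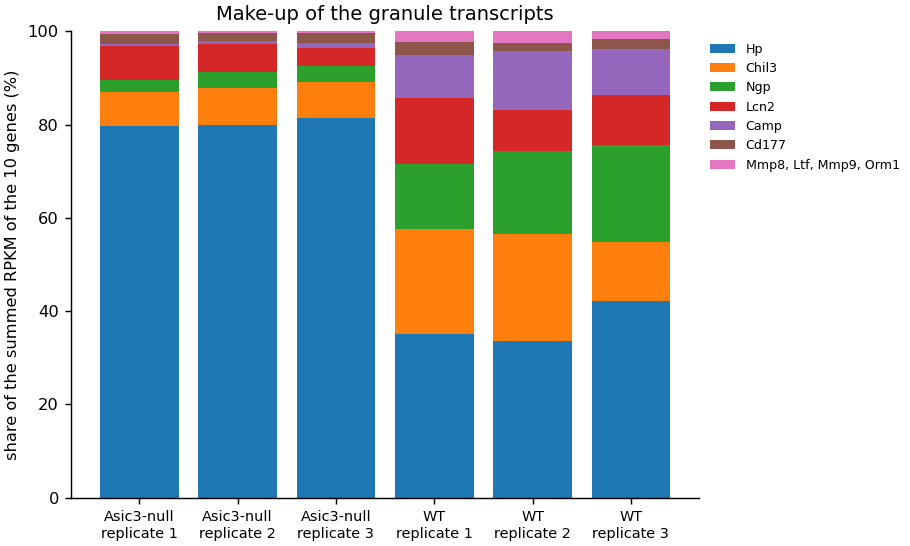
The share of the summed RPKM of the 10 granule genes that each gene took, in percent, with 1 bar per library; Mmp8, Ltf, Mmp9 and Orm1 are added together. Hp takes 79.6% to 81.5% in the libraries labelled Asic3-null and 33.6% to 42.1% in those labelled WT.

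Variation within a group was not shared evenly by the genes. WT replicate 1 was the highest WT library for 6 of the 9 tested genes (Lcn2, Mmp8, Mmp9, Chil3, Cd177 and Hp) and the lowest for Ltf and Ngp. Relative to the mean of the other 2 WT libraries it stood at 2.00 for Mmp8, 1.74 for Mmp9, 1.72 for Lcn2 and 1.64 for Cd177. For Camp it stood at 0.967, for Ngp at 0.856 and for Ltf at 0.273. WT replicate 1 was thus high for both proteases and low for lactoferrin. It was also lowest for Mpo, myeloperoxidase, at 191 RPKM against 790 and 548 RPKM in the other WT libraries. Without that library the log2 difference of Ltf was -4.03. Among the Asic3-null libraries, replicate 2 was highest for 5 of the 9 genes and replicate 1 lowest for 4.

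**Figure D3:**
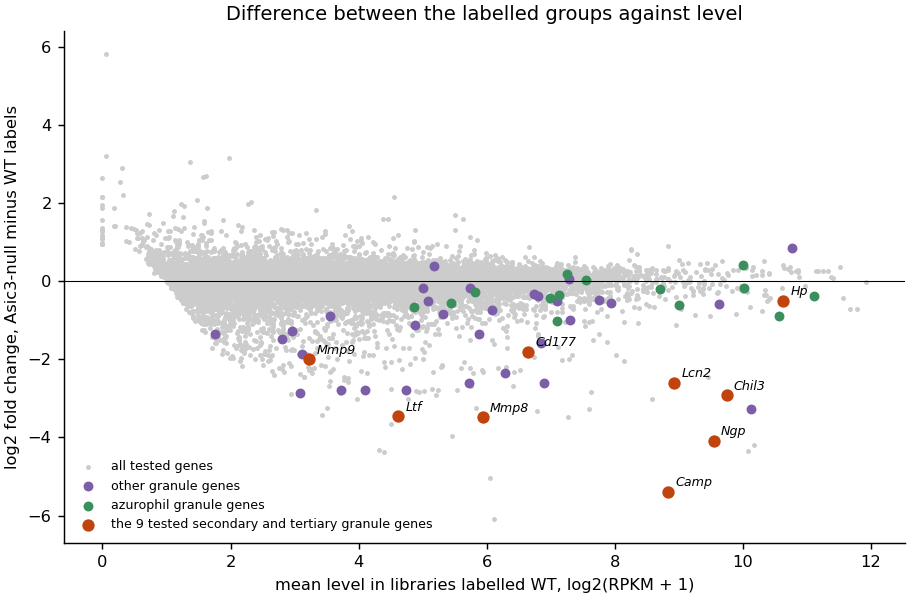
The log2 difference between libraries labelled Asic3-null and WT (vertical) against the mean level under WT as log2(RPKM + 1) (horizontal), for all 12037 tested genes in grey, azurophil granule genes in green, other granule genes in purple and the 9 tested genes of the set in orange. Hp lies nearest to 0 of the set at -0.50 and Camp farthest at -5.39.

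Other proteins of the same granules were examined through lists of known granule genes, which like the set itself were drawn up with results of these data known. Of 41 such genes, 31 could be tested, and 17 were lower and 1 higher under the Asic3-null label (limma, adjusted p under 0.05), or 54.8% lower beside 2.82% of all genes. The count of 17 fell to 10 without Asic3-null replicate 2 or 3 or WT replicate 1 or 2, and to 0 with untransformed RPKM and no moderation. Their median log2 difference was -0.98, and 28 of the 31 lay below 0. Among other specific granule proteins, 5 of 12 tested were lower. Lyz2, lysozyme, fell from 1198, 1379 and 770 RPKM in the WT libraries to 96.4, 131 and 106 RPKM (log2 difference -3.28, limma adjusted p = 0.000141). Olfm4, olfactomedin 4, which marks a subset of neutrophils, fell from 108, 128 and 118 RPKM to 13.7, 17.9 and 25.7 RPKM (log2 difference -2.60, limma adjusted p = 0.000396). Lyz1 (log2 difference -2.79), whose near-identical copy Lyz2 could share its reads, the leucine-rich glycoprotein Lrg1 (-2.78) and the integrin beta chain relative Itgb2l (-2.86) were lower too, the call for Lrg1 being lost under 2 of 15 alternatives.

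Slpi, a secreted inhibitor of neutrophil elastase, was the exception and rose. It was 2514, 3965 and 3110 RPKM in the Asic3-null libraries and 1840, 1740 and 1638 RPKM in the WT libraries, without overlap (log2 difference 0.85, SE 0.16, limma adjusted p = 0.0259). That call was lost under 9 of 15 alternatives. Stom, stomatin of the granule membrane, had a log2 difference of 0.06 (SE 0.15, adjusted p = 0.872), with overlapping libraries, and Pglyrp1, a bactericidal peptidoglycan-binding protein, one of -0.56 (SE 0.15, adjusted p = 0.0983).

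Of the other gelatinase granule genes, 4 of 8 tested were lower: Fcnb, ficolin B (log2 difference -2.60), the metal transporter Slc11a1 (-1.87), the metalloprotease Adam8 (-1.27) and the urokinase receptor Plaur (-0.74). Fcnb fell from 35.4, 71.1 and 49.7 RPKM under WT to 6.51, 8.30 and 7.62 RPKM (limma adjusted p = 0.000836). Among membrane proteins of granules and secretory vesicles, 8 of 11 tested were lower. Itgam, the alpha chain of Mac-1, fell from 89.5, 85.7 and 55.1 RPKM to 12.9, 12.3 and 16.9 RPKM (log2 difference -2.35, limma adjusted p = 0.00072), although Mac-1 was used to sort the cells of both groups. Its beta chain Itgb2 differed less (-0.98). Cybb, the catalytic subunit of the phagocyte NADPH oxidase, differed by -1.59 and its partner Cyba by -0.59, and the formyl peptide receptor Fpr2 by -2.79. Cd14, Tnfrsf1b and Ptafr were the remaining 3. Among these calls, Plaur and Cd14 were each lost under 8 of 15 alternatives, Adam8 under 8 of 14, Itgb2 under 7 of 15, Tnfrsf1b under 6 of 15 and Slc11a1 under 5 of 14. The calls of Ptafr (lost under 10 of 15) and Cyba (9 of 15) were the least stable of these, and that of Fpr2 was lost under 2 of 15.

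Azurophil granule genes are switched on earlier in granulopoiesis. Of 14 tested, 1 was lower (7.14%, beside 2.82% of all genes), 11 lay below 0 and the median log2 difference was -0.36. For 5 of the 14, every Asic3-null library was below every WT library, beside 11.4% of all genes. The one was Elane, neutrophil elastase, at 631, 865 and 979 RPKM against 1203, 1621 and 1711 RPKM (log2 difference -0.88, SE 0.19, limma adjusted p = 0.0435), and that call was lost under 9 of 15 alternatives. Ms4a3, a membrane protein of granulocyte and monocyte progenitors, had a log2 difference of -1.02 without overlap (SE 0.29, limma adjusted p = 0.116, or 0.0154 with replicate number as a block). Mpo had one of -0.61 (SE 0.43, adjusted p = 0.534), which without WT replicate 1 was -1.20 and passed the threshold, and Prtn3, proteinase 3, one of -0.38 (SE 0.17, adjusted p = 0.317). Ctsg, cathepsin G, stood on the other side at 0.43 (SE 0.18, adjusted p = 0.289). The summed level of the list was 5424 to 7020 RPKM under the Asic3-null label and 6015 to 8697 RPKM under WT, and these ranges overlap. The difference between the azurophil list and the later granule classes was not tested.

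The machinery that docks and releases granules showed no called gene. Of 11 tested, including Rab27a, Unc13d, Vamp8 and Stxbp2, 0 passed the limma threshold in either direction, 3 were lower at an unadjusted p under 0.05 (9.45% of all tested genes were) and limma-voom called 0. All 11 lay below 0, and for 5 of them every Asic3-null library was below every WT library, beside 11.4% of all genes. Their log2 differences ran from -0.41 to -0.01.

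Transcription factors of granulopoiesis gave 1 called gene of 14 tested (7.14%, beside 2.82% of all genes). It was Cebpb, at 51.7, 49.7 and 46.2 RPKM against 80.0, 68.6 and 104 RPKM (log2 difference -0.74, SE 0.16, limma adjusted p = 0.0461), a call lost under 10 of 15 alternatives. Cebpe, which encodes C/EBP-epsilon, was 76.4, 90.9 and 92.5 RPKM in the Asic3-null libraries and 74.1, 56.8 and 65.9 RPKM in the WT libraries. Every Asic3-null library was above every WT library for Cebpe, but the log2 difference of 0.40 (SE 0.14) did not pass the threshold (limma adjusted p = 0.222). Cebpa, needed to form granulocyte and monocyte progenitors, differed by -0.31 (SE 0.15, adjusted p = 0.344), Spi1, which encodes PU.1, by -0.38 (SE 0.11, adjusted p = 0.136) and the repressor Gfi1 by -0.12 (SE 0.15, adjusted p = 0.732). Spi1, at 301 to 339 RPKM against 391 to 446 RPKM, and Cebpd, at 21.9 to 24.3 RPKM against 30.1 to 37.4 RPKM (log2 difference -0.51, limma adjusted p = 0.113), had every Asic3-null library below every WT library. With Cebpb that was 3 of the 14, beside 11.4% of all genes.

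**Figure D4:**
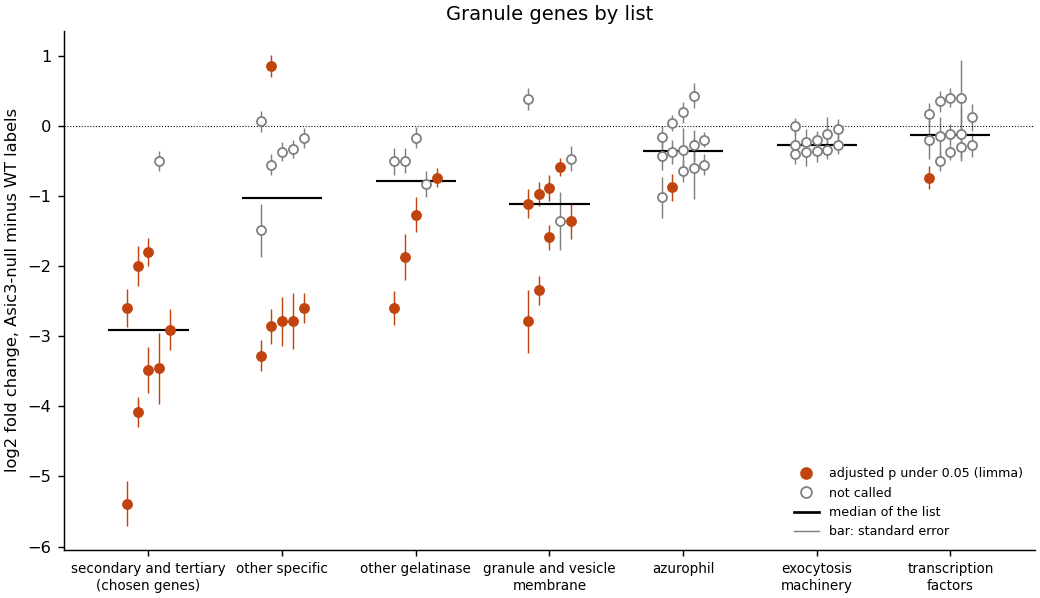
The log2 difference between libraries labelled Asic3-null and WT for each tested gene of 7 lists, with its standard error; filled points have a limma adjusted p under 0.05, and thick bars mark list medians. The medians run from -2.91 for the chosen set, through -1.02, -0.78 and -1.11 for other specific, gelatinase and membrane genes, to -0.36 for azurophil genes, -0.27 for exocytosis genes and -0.14 for transcription factors.

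Related genes outside the granules were nearly silent, so few could be compared. Of 17 paralogs listed, 10 had reads and 3 could be tested. Chil4, the closest relative of Chil3, fell from 29.0, 22.8 and 13.4 RPKM to 1.43, 3.61 and 1.97 RPKM (log2 difference -2.76, SE 0.32, limma adjusted p = 0.00258). Chil3 was 36.4 to 61.8 times as high as Chil4 in each library, and since the 2 genes are alike in sequence and the handling of shared reads is not given in the sources used here, the Chil4 value is uncertain. The transferrin gene Trf, related to Ltf, was at 18.5, 22.3 and 16.6 RPKM against 31.0, 33.3 and 25.9 RPKM (log2 difference -0.63, limma adjusted p = 0.0944). Orm2 and Orm3, close copies of Orm1, were at 0 to 1.23 RPKM, with at most 2 reads in any library. The collagenase Mmp13 reached at most 0.161 RPKM, and Mmp3, Mmp10, Mmp12 and Mmp14 had no read. Mmp19 was 7.42 to 14.1 RPKM with a log2 difference of 0.09.

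A list of receptors, binding partners and inhibitors of the granule proteins, which also held Hmox1, gave 1 called gene of 5 tested (20%, beside 2.82% of all genes). The called gene was Hmox1, an enzyme gene, and no tested receptor or binding partner was called. Hmox1, heme oxygenase 1, which degrades the heme that haptoglobin helps to clear, fell from 36.5, 35.2 and 32.4 RPKM to 6.03, 4.80 and 7.84 RPKM (log2 difference -2.33, SE 0.19, limma adjusted p = 0.000396). The haptoglobin receptor Cd163 was 0.457 to 2.12 RPKM with overlapping groups, and Pecam1, a binding partner of CD177, differed by 0.11 (SE 0.18, adjusted p = 0.809). The metalloproteinase inhibitors Timp1 and Timp3 were at or near 0, and Timp2 was 0.119, 0.348 and 0.118 RPKM against 1.58, 1.42 and 1.40 RPKM, too low in mean level to enter the fit.

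Genes beside the granule genes on the chromosome gave 1 call. Within 100 kb of the 10 genes lay 48 others, of which 38 had reads and 29 could be tested. Of those 29, 1 was called lower (Chil4, 51915 bases from Chil3) and 0 higher (limma, with 7 lower and 0 higher at an unadjusted p under 0.05, beside 9.45% and 6.43% of all tested genes, and 1 and 0 called by limma-voom). That is 3.45% beside 2.82% of all genes, with a median log2 difference of -0.14, 17 being below 0 and 12 above. For 10 of the 29, every Asic3-null library was below every WT library, beside 11.4% of all genes. The gene nearest to Lcn2, 1110008P14Rik at 5824 bases, was not called (log2 difference -1.07, limma adjusted p = 0.0625). Its libraries did not overlap, at 15.1, 23.6 and 16.9 RPKM under the Asic3-null label and 55.7, 28.1 and 38.6 RPKM under WT. Neither Ptpn23, 11598 bases from Ngp (log2 difference 0.11), nor Nme6, 16734 bases from Camp (-0.21), was called, and both had overlapping libraries.

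**Figure D5:**
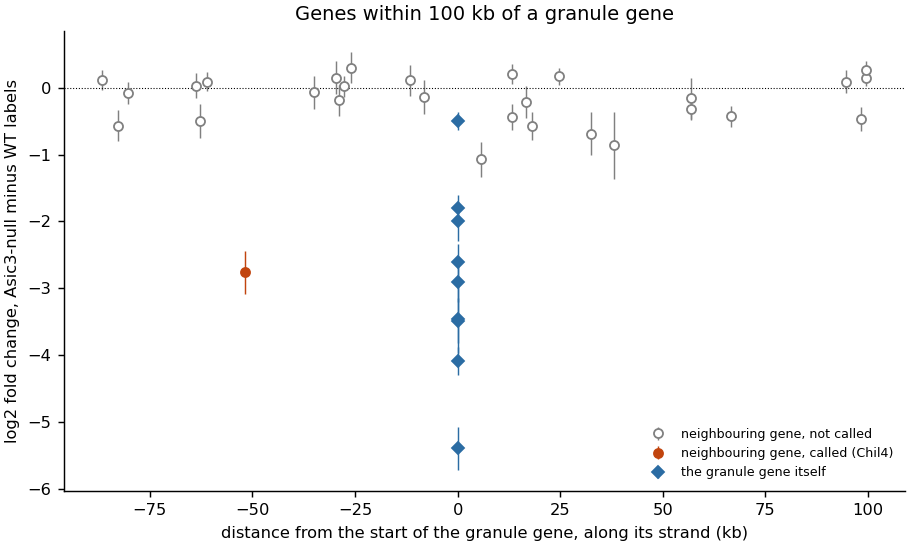
The log2 difference between libraries labelled Asic3-null and WT, with its standard error, for tested genes within 100 kb of a granule gene, against their distance from its start in kb along its strand; diamonds are the granule genes. Of 29 neighbours, Chil4 alone has a limma adjusted p under 0.05.

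Lists of markers of other cell types differed in how they stood between the labels. The summed level of 14 genes of maturing neutrophils was 248 to 353 RPKM under the Asic3-null label and 2947 to 3272 RPKM under WT, and 7 of 11 tested were lower (63.6%, beside 2.82% of all genes), S100a8 and S100a9 among them. Most of the sum was S100a8 (1045, 1293 and 1125 RPKM in the WT libraries), S100a9 (1052, 1146 and 1046 RPKM) and Stfa1 (976, 514 and 611 RPKM). Of the surface markers on this list, Ly6g had reads in 1 library only, at 1.07 RPKM, and Cxcr2 was at most 1.72 RPKM. The G-CSF receptor Csf3r was 7.79 to 10.6 RPKM under the Asic3-null label and 17.5 to 30.0 RPKM under WT (log2 difference -1.25, limma adjusted p = 0.0175, lost under 6 of 15 alternatives), and Trem1 was 1.58 to 11.6 RPKM against 10.4 to 18.1 RPKM, with overlap. Monocyte and macrophage markers summed to 1347 to 1539 RPKM against 1905 to 2139 RPKM, with 4 of 9 tested lower (Csf1r, Ccr2, F13a1 and Adgre1; 44.4%, beside 2.82%) and Mrc1 at 0 in 5 of the 6 libraries. Most of that sum was Ly6c2, at 963 to 1133 RPKM against 1252 to 1371 RPKM, which was not called (log2 difference -0.34, limma adjusted p = 0.166). The part of these markers in the granule gene differences was not tested. The T cell and hepatocyte lists summed to under 1 RPKM in every library, and the erythroid list to at most 10.8 RPKM. Basophil and mast cell markers were at 115 to 127 RPKM against 57.4 to 128 RPKM, with a median log2 difference of 0.55 over 2 tested genes, and B cell markers at 40.1 to 47.6 RPKM against 43.3 to 50 RPKM, nearly all of it Cd79b.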

How the data were processed

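RNA of sorted leukemia-initiating cells was sequenced from TruSeq v2 libraries, a kit that does not mark strand. Per the labels, the authors used CASAVA 1.8.2 and TopHat2 2.0.12 on GRCm38 and deposited 1 table of RPKM per gene and library. The counting tool, annotation and library size are not given in the sources used here. All 6 columns were matched to labelled samples, and 0 were left without one. Entrez rows were named from RefSeq (25275 of 27179 matched).

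The 10 genes and all lists were chosen with earlier results of these data known. RPKM values were divided by the value of 1 read, which was inferred because the library size is not given. In this way all 16825 genes above 0 gave whole reads within 0.0001, and a tested gene had a median of 83.3 reads per library. The number of reads limits precision.

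Genes with a mean of at least 1 RPKM entered limma 3.58.1 (R 4.3.3) on a log2(RPKM + 1) scale (groups only, empirical Bayes moderation with an intensity trend), and p-values were Benjamini-Hochberg adjusted over 12037 genes at 0.05. The pseudocount understates changes of low genes. The fit was tested on simulated data. Genes named were the set, up to 6 called genes of each list with the lowest p, fixed transcription factors and label checks, paralogs with reads, and called genes within 100 kb. Other genes named from the lists (Stom, Pglyrp1, Cyba, Ptafr, Mpo, Ms4a3, Cebpd, Prtn3, Ctsg, exocytosis genes, Timp genes, Cd163, Pecam1, the nearest neighbours and cell type markers) were chosen after their values were seen. Alternatives were another pseudocount (0.1), low-value filters, scalings, no intensity trend, untransformed RPKM without moderation, limma-voom on the recovered reads, replicate number as a block, and leaving out each library. Promoter windows came from RefSeq GRCm38.p6.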

Additional observations from a re-analysis of the deposited data

How the results depend on the processing

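No granule gene of the set changed direction under any alternative. The set was chosen on this difference, and the groups did not overlap for any of its 9 tested genes. A kept direction therefore checks little, and nothing is read from the counts of the set given below. The log2 difference of Ltf moved from -3.46 to -4.44 with a pseudocount of 0.1 and to -4.47 with limma-voom, and that of Mmp9 from -2.00 to -2.63 at the lowest. With untransformed RPKM and no moderation, 4 genes were called in place of 403, 0 of the set in place of 8, 0 other granule genes in place of 17 and 0 azurophil genes in place of 1, although 1694, 8, 22 and 4 had an unadjusted p under 0.05. The azurophil count was also 0 with no filter on low values, with quantile normalization and with no intensity trend, and 2 with limma-voom. Leaving out 1 library at a time gave 203 to 293 genes called, 8 to 9 of the set, 10 to 14 other granule genes and 0 to 2 azurophil genes. The fewest genes were called without WT replicate 1 (203), and the other granule count was 10 without Asic3-null replicate 2 or 3 or WT replicate 1 or 2. Replicate numbers are only names here, as same-numbered libraries did not deviate together (r = 0.0591, -0.0593 and -0.123 over genes). With replicate number as a block, 246 genes were called, 8 of the set and 2 azurophil genes. The lowest values rested on 3 to 15 reads a library, and the log2 difference of Ltf had the largest standard error of the set (0.51).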

Other observations

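Among 4 tested eosinophil genes, the median log2 difference was -0.60 and all 4 lay below 0, with overlapping libraries for each. Prg2, the major basic protein of eosinophil granules, was 19.1, 5.01 and 12.7 RPKM under the Asic3-null label and 4.54, 43.5 and 15.1 RPKM under WT, with overlap (log2 difference -0.42, SE 0.69, limma adjusted p = 0.811). Leaving out WT replicate 2 put the Prg2 difference at 0.32, and leaving out Asic3-null replicate 2 put it at 0.07, so its direction rested on single libraries. WT replicate 2 was also the highest library for Prg3 (11.9 RPKM), Epx, eosinophil peroxidase (2.86 RPKM), and Siglecf (34.2 RPKM). The eosinophil list summed to 93.2 RPKM in that library and to 20.6 to 31.2 RPKM in the other 5. None of the 4 tested eosinophil genes was called at an adjusted p under 0.05 (limma), 0 had an unadjusted p under 0.05 and limma-voom called 0.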
